A study of Rattus norvegicus with 20 samples.

Results

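Cell adhesion and guidance receptors were followed in rat epithelial cells that had been cultured from 5 tissues and transplanted into mouse skin. The members were the genes whose symbol began with 1 of 18 prefixes (Cdh, Pcdh, Itga, Itgb, Cldn, Nectin, Cadm, Epha, Ephb, Efna, Efnb, Sema, Plxn, Nrp, Ntn, Unc5, Robo or Slit), with Cdh6 and Itgb8 left out. The deposited counts carry Ensembl gene identifiers alone, so names were taken only from the 2311 identifier and symbol pairs in the gene lists of the study. This gave 41 symbols, of which 39 were analysed out of 32494 genes in the files. They were 9 claudins, 7 cadherins, 7 Eph receptors, 5 ephrins, 3 protocadherins, 2 cadherin-related genes, 2 cell adhesion molecules (Cadm), 2 semaphorins, 1 netrin-G gene and the claudin domain gene Cldnd1. Members were found for 10 of the 18 prefixes. The list of all differing genes was at hand only for symbols up to Fam, and 33 members stood in it, while the other 6 (Ntng2, Pcdhb19, Pcdhga2, Pcdhga3, Sema3a and Sema3e) came only from the list of genes in common. Families late in the alphabet are therefore thinly covered, and integrins, plexins and neuropilins were not analysed here.

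The cells came from Sprague-Dawley rats carrying an act-EGFP transgene that labels every cell green, with the bladder (dome) taken at PN201, trachea and vagina at PN200, thymus at PN137 and whisker follicle at PN57 (postnatal days). They were grown on irradiated mouse 3T3-J2 feeder cells, sorted for EGFP and sequenced either before transplantation or after being recovered from skin grafts on nude mice and cultured again, with 2 samples in each of 10 groups. Whisker cells were a clone (clone 7 before, subclone 14 recovered), the recovered thymic cells were bulk 907, and the thymic cells before transplantation are called bulk in one label and clone 9 in another. The other groups were bulk cultures. Each whisker change after transplantation also compares clone 7 with subclone 14, and subcloning and transplantation cannot be told apart there. The study took its thymic cells of both rounds from frozen stock. If the earlier thymic cells were clone 9, each thymic change also compares a clone with bulk cells. Tissue, donor age and culture cannot be told apart in this design. Nothing states that both samples of a group came from separate animals or transplants. The p values therefore measure only the spread between samples of the same group, pooled for each gene over the 10 groups. That spread may be technical.

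Epithelial sheets are held together by cadherins, which bind the same cadherin on the next cell and are anchored to actin through catenins, and are sealed by claudins, the membrane proteins of tight junctions that set which ions pass between cells. Eph receptors are tyrosine kinases that are switched on by ephrins on neighbouring cells and make cells repel, sort or hold their place. Semaphorins are secreted or membrane guidance cues, and netrin-G proteins are lipid-anchored relatives of netrins. In skin and hair follicle these families are known for placing cells in layers, for the water barrier of the epidermis and for the switch between E-cadherin and P-cadherin or N-cadherin where epithelium meets mesenchyme.

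The promoters of 6 members are given because their genes moved alike in bladder and trachea or in 4 of the 5 tissues. Epha1, Cldn1, Efna3 and Pcdhb19 rose in both bladder and tracheal cells after transplantation, and Cldn7 and Ephb1 fell in 4 of the 5 tissues. Cldn1 also fell in whisker cells. The sequences span 250 bases before to 50 bases after the start of the gene, are from RefSeq on GRCr8 (the counts were made on Rnor_6.0), and read 5′ to 3′ along the gene. They lie at chr4:72227425-72227724 (minus strand), chr11:87926126-87926425 (plus), chr2:177035789-177036088 (minus), chr18:29478598-29478897 (plus), chr10:55188420-55188719 (plus) and chr8:111823710-111824009 (minus), in the order below. Capitals mark the E-box CACCTG or CAGGTG, the letters that zinc finger repressors such as Snail and Zeb are known to bind, and the GC box GGGCGG or CCGCCC, bound by Sp1. Both strands were searched and the motifs do not overlap in these windows.
Epha1: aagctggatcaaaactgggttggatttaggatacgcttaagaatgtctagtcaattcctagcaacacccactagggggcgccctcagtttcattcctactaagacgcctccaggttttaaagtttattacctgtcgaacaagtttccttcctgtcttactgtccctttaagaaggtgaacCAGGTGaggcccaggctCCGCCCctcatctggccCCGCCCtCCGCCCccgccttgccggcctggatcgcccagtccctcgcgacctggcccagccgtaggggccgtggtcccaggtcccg
Cldn1: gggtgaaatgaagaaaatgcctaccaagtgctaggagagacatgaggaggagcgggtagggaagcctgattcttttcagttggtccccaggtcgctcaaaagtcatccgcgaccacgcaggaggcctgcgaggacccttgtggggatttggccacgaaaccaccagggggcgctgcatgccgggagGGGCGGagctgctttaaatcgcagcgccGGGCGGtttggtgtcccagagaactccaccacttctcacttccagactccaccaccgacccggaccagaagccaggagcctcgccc
Efna3: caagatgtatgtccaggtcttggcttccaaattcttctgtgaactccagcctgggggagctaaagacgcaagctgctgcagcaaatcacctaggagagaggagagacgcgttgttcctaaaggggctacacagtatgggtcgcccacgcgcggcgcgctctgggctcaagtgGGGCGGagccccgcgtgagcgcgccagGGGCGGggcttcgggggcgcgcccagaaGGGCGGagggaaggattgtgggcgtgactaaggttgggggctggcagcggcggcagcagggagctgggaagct
Pcdhb19: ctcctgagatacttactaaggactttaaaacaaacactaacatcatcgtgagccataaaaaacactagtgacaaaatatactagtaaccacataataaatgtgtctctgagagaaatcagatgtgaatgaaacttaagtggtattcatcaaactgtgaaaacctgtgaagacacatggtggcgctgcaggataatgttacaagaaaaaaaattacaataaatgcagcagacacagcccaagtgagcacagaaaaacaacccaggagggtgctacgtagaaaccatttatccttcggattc
Cldn7: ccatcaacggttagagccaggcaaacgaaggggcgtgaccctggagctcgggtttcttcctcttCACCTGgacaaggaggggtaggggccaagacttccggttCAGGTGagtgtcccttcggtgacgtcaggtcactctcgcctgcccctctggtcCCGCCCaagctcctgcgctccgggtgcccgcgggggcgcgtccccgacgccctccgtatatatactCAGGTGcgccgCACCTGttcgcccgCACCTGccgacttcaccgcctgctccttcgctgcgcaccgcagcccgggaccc
Ephb1: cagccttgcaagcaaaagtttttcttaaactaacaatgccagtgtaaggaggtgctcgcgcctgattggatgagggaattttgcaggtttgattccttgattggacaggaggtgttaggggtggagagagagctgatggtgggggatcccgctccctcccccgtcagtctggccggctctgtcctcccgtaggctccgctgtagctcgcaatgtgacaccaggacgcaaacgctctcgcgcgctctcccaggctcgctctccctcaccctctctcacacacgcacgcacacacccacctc
The Cldn7 promoter held 5 of these E-boxes and 1 GC box, and the Epha1 promoter held 1 E-box and 3 GC boxes. Cldn1 had 2 GC boxes and Efna3 had 3, with no E-box in either window. In Pcdhb19 and Ephb1 neither set of letters was present. Over all promoters of 300 bases in the table, 18.84% held the E-box (6304 of 33469) and 33.06% the GC box (11066). A promoter was listed for 28 members, and 7 of them held the E-box and 17 the GC box. No entry was matched for Cdh17, Cdh11, Cdh13, Cdh2, Cldn23, Cadm1, Epha4, Cldn4, Cdh1, Sema3a and Cdh16. Several members are neighbours with 0 protein-coding genes between them, namely Cldn3 and Cldn4, Cldn8 and Cldn17, Pcdhga2 and Pcdhga3, and Efna1, Efna3 and Efna4.

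Each sample held 20723083 to 29824855 reads on genes. Levels are given as CPM, a gene's counts divided by the TMM-scaled library size in units of 1000000, and on that scale 3 counts correspond to 0.09905 to 0.143 CPM. All 39 members reached 1 CPM in at least 1 sample, the filter that left 13302 genes, but the lists that named them hold genes the study had called against whisker cells, so passing it was fixed by the choice. In each group both samples were further apart than counting noise allows. This was most so in thymic and bladder cells before transplantation (mean chi-square per gene 43.2 and 34.1, against 2.49 in the closest pair). Since the tests pool the spread over groups, standard errors and p values can be too small for the noisier groups. Of the epithelial markers with a name (2 of 7, Epcam and Cdh1), both were high in all samples, with a summed level of 999.6 to 2939 CPM. Tissue markers were few. Upk1b, a urothelial plaque protein, stood at 134.2 to 191.4 CPM in bladder cells but also at 123.8 to 164.3 CPM in thymic and 124.7 to 137.3 CPM in tracheal cells before transplantation. Esr1, the oestrogen receptor used as a marker of vagina, was at 17.15 and 20.57 CPM in vaginal cells before and at 0.754 and 0.696 CPM in recovered ones. Tbx1, fixed as a thymic marker, was highest in whisker cells (83.25 to 153.9 CPM) and goes against that label. None of the trachea markers had a name.

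After transplantation, members moved in every tissue, and the changes were not the same from tissue to tissue. A gene was called at a limma adjusted p under 0.05 and a change of at least 2-fold. In bladder cells 16 of 39 members were called, 9 higher and 7 lower, where 21.1% of all genes tested were called (10.1% higher, 11% lower). In tracheal cells 15 were called, 6 higher and 9 lower (12.4% of all genes, 4.39% higher and 8.04% lower). In vaginal cells 8 were called, 3 higher and 5 lower (11.8%, with 4.25% higher and 7.53% lower). In thymic cells 10 were called, 5 in each direction (15.4%, with 8.49% higher and 6.89% lower). In whisker cells 9 were called, 3 higher and 6 lower (5.98%, with 2.15% higher and 3.83% lower). These members had been named from comparisons of the same samples, so their larger shares are a description. The median log2 change of the members was -0.133 in whisker cells, -0.331 in tracheal, 0.022 in thymic, 0.06 in vaginal and 0.2 in bladder cells, beside medians between -0.005 and 0.017 over all genes. Over the 5 tissues there were 58 calls, 26 higher and 32 lower, in 27 members (35.2% of all genes were called at least once). The other 12 members were called in none, and 7 members were called in opposite directions in different tissues (8.38% of all genes). The difference in change among the 5 tissues was itself called for 30 of 39 members by limma's F test, against 45.4% of all genes, with a median spread of 2.15 on the log2 scale beside 1.04 over all genes.

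**Figure D1:**
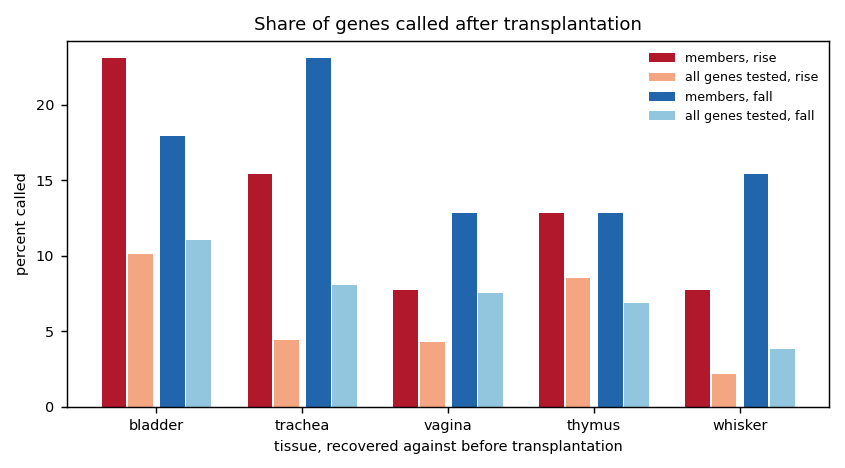
Share of the 39 members (dark bars) and of all 13302 genes tested (light bars) called higher (red) or lower (blue) after transplantation, in percent, for each tissue. The member bars stand above the bars of all genes in each tissue and direction, with the members' choice from the same samples as a limit.

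Among the claudins, Cldn7 fell furthest and Cldn1 moved in opposite directions between tissues. Cldn7, a claudin of many simple epithelia that also lies along the sides of cells, was measured at 60.2 and 67.3 CPM in bladder cells before transplantation and at 5.52 and 5.04 CPM after recovery. In tracheal cells it went from 59.5 and 58.4 CPM to 0.376 and 0.255 CPM, and in vaginal cells from 5.35 and 5.71 CPM to 0.0419 and 0 CPM. The recovered samples lay below the earlier ones without overlap in all 3 tissues. The log2 change was -3.59 ± 0.13 (SE) in bladder (adjusted p = 3.51e-12) and -7.50 ± 0.35 in trachea (adjusted p = 1.77e-10), which is 181-fold. Only 1 read remained in the recovered vaginal samples together, so the ratio of before over recovered was 290 with a 95% counting interval of 51.7 to 11500 (adjusted p = 1.33e-07). In whisker cells Cldn7 was low already, at 0.208 and 0.328 CPM, and was listed at 0 in both recovered samples, at least 4.07-fold lower against a floor of 3 counts over the group (adjusted p = 0.00163). Intervals and floors here cover counting error only. Thymic cells went the other way, from 2.34 and 1.86 CPM to 4.16 and 3.4 CPM, with no overlap but under the 2-fold limit (log2 change 0.82 ± 0.22, adjusted p = 0.00533). The difference among tissues was called (adjusted p = 9.9e-07). In bulk samples fewer cells of a type and less RNA per cell cannot be told apart, for Cldn7 or for any gene that follows.

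Cldn1, without which the epidermis loses its water barrier, was lowest in bladder cells before transplantation, at 111 and 50 CPM, and reached 730 and 750 CPM after recovery. In tracheal cells it went from 215 and 225 CPM to 464 and 465 CPM. In whisker cells it went down, from 621 and 585 CPM to 168 and 183 CPM. The groups did not overlap in any of these 3 tissues, and after recovery whisker cells held the lowest level of the 5. The log2 changes were 3.31 ± 0.21 in bladder (9.89-fold, adjusted p = 1.71e-09), 1.08 ± 0.20 in trachea (adjusted p = 0.000542) and -1.78 ± 0.20 in whisker (adjusted p = 9.52e-06). Vaginal cells went from 839 and 740 CPM to 448 and 429 CPM, under the 2-fold limit (log2 change -0.85, adjusted p = 0.00374), and thymic cells stood at 657 to 730 CPM in all 4 samples. The difference among the 4 other tissues was called for Cldn1 before transplantation (a span of 3.40 on the log2 scale, adjusted p = 1e-09) and was under 2-fold in recovered cells (0.76, adjusted p = 0.0034).

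Cldn4, which is abundant in bladder and other epithelia exposed to strong solutes, was at 1322 and 1104 CPM in bladder cells before and at 1973 and 1946 CPM after recovery. It was called higher in recovered bladder cells than in each of the 4 other tissues, whose samples lay between 459.6 and 805 CPM. Before transplantation thymic cells, at 1160 and 891 CPM, overlapped with bladder, and their difference did not pass the test (log2 difference of bladder minus thymus 0.25, adjusted p = 0.052). Its change after transplantation was under 2-fold in each tissue, with log2 changes between -0.61 in thymus and 0.70 in bladder. Cldn3, the gene next to Cldn4, was at 78.6 and 81.8 CPM in tracheal cells before and at 32.7 and 33.5 CPM after, a fall with no overlap (log2 change -1.28 ± 0.15, adjusted p = 5.57e-06). In the other tissues the Cldn3 change was between -0.92 and 0.43. Its thymic fall was past 2-fold without the earlier thymic sample 2 (-1.14).

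The remaining claudins were low or moved in fewer tissues. Cldn23 rose in bladder cells, from 72.2 and 58.6 CPM to 178 and 156 CPM (log2 change 1.36 ± 0.11, adjusted p = 2.15e-08). Cldn6, known from early embryonic epithelium, fell in tracheal cells from 1.19 and 1.17 CPM to 0.141 and 0.255 CPM (log2 change -2.47 ± 0.49, adjusted p = 0.000748). Its thymic call (-1.66, adjusted p = 0.016) was lost in the DESeq2 test, when the thymic samples were fitted alone, and on leaving out thymic sample 2 of either round, which gave -1.53 (before) and -0.902 (recovered). Cldn8, a claudin that closes tight junctions to cations, fell in vaginal cells from 1.03 and 1.15 CPM to 0.335 and 0.278 CPM (log2 change -1.78, adjusted p = 0.00646), a call lost without recovered sample 2 (-1.63). Cldn17, which forms anion pores, was called higher in bladder, thymic and whisker cells. These calls rest on few reads, 7 against 0 in bladder (at least 2.64-fold) and 12 against 1 in thymus (ratio 11, counting interval 1.63 to 470). Each was lost on leaving out a sample, with log2 changes of 2.56 to 3.18 in bladder, 1.91 and 2.43 in thymus and 1.47 and 2.12 in whisker. The thymic Cldn17 call was also lost in the DESeq2 test (3.44). Cldn15, a claudin that lets sodium through in the intestine, stayed between 0.838 and 4.06 CPM and was called in no tissue. Cldnd1, a claudin domain gene whose role is less well known, lay between 53.7 and 130 CPM, with log2 changes of -0.38 to 0.50 and no call.

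**Figure D2:**
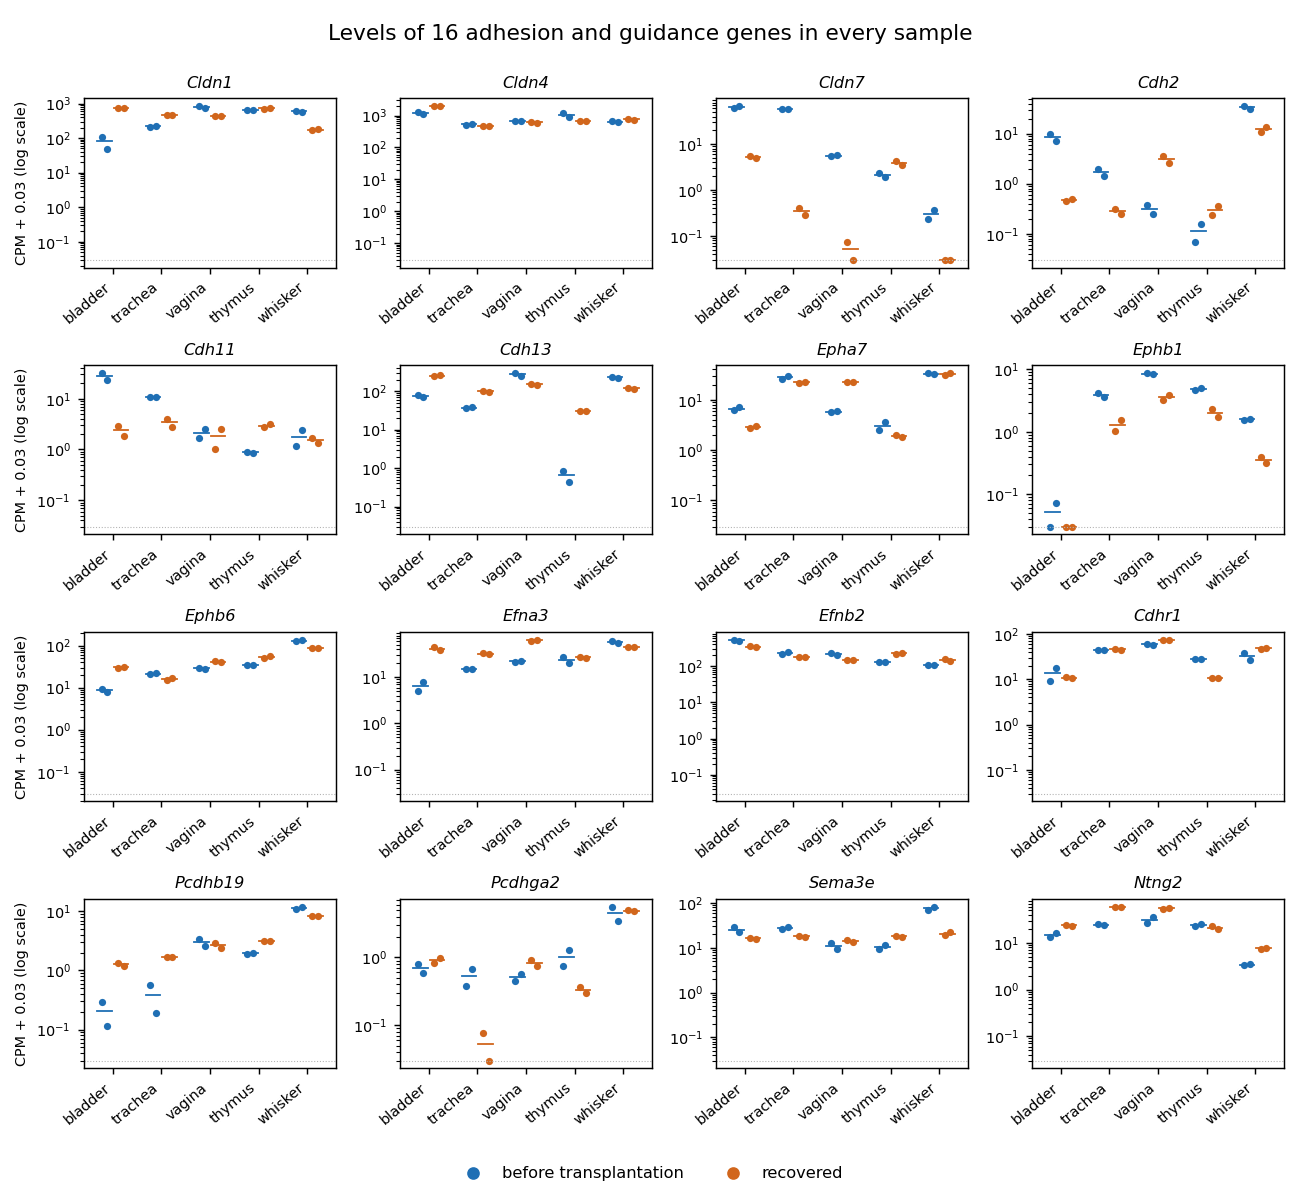
Level of 16 members in each of the 20 samples, in CPM plus 0.03 on a log axis, by tissue (blue, before transplantation, and orange, recovered, with a short line at the mean of both samples). The dotted line marks 0 CPM. Cldn7 drops in bladder, trachea, vagina and whisker, Cldn1 rises in bladder and trachea and falls in whisker, and Cdh2 and the protocadherins are highest in whisker cells. The protocadherins were named only from genes that differed from whisker cells.

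The cadherins moved in both directions. Cdh2, N-cadherin, the cadherin of mesenchyme and nerve cells, was highest in whisker cells, at 35.4 and 31.6 CPM before transplantation and 10.8 and 13.4 CPM after recovery. In bladder cells it was at 9.63 and 7.07 CPM before and 0.428 and 0.473 CPM after, and in tracheal cells at 1.92 and 1.37 CPM before and 0.282 and 0.219 CPM after. In vaginal cells it moved upwards, from 0.344 and 0.222 CPM to 3.52 and 2.54 CPM. None of these pairs of groups overlapped. The log2 changes were -4.14 ± 0.42 in bladder (adjusted p = 3.71e-07), -2.63 ± 0.52 in trachea (adjusted p = 0.000782), -1.47 ± 0.14 in whisker (adjusted p = 9.89e-07) and 3.31 ± 0.48 in vagina (9.89-fold, adjusted p = 4.91e-05). Thymic cells, at 0.0397 to 0.33 CPM, did not pass the test (log2 change 1.64, adjusted p = 0.0844). Recovered vaginal cells, alone among the 16 samples outside the whisker groups, also held Tfap2b, a whisker follicle gene, at 8.42 and 8.14 CPM, beside at most 0.154 CPM in the other 14 and 32.94 to 51.83 CPM in whisker cells. Sdr16c6, the other whisker marker with a name, was only at 0.2095 and 0.0696 CPM there, a change that did not pass the test (adjusted p = 0.0999). In whisker cells it was at 12.35 and 13.21 CPM before and 1.427 and 2.333 CPM after. The part of Tfap2b-bearing cells in the Cdh2 change was not tested. Without vaginal cells the difference in change among tissues was called for 27 members. The share of all genes is not given for that test, so nothing is read from the count.

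Cdh11, the cadherin of fibroblasts and bone-forming cells, was at 32 and 23.7 CPM in bladder cells before transplantation and at 2.86 and 1.85 CPM after. In tracheal cells it was at 10.8 and 10.7 CPM before and 4.04 and 2.74 CPM after. The earlier samples of both tissues stood above all 16 others. The log2 changes were -3.59 ± 0.33 in bladder (adjusted p = 1.1e-07) and -1.72 ± 0.29 in trachea (adjusted p = 0.000205). In thymic cells Cdh11 rose from 0.873 and 0.828 CPM to 2.76 and 3.1 CPM (log2 change 1.77 ± 0.50, adjusted p = 0.00845), a call lost without thymic sample 1 of the earlier round (1.79). Vaginal and whisker cells overlapped between rounds, at 1 to 2.54 CPM.

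Matrix genes of fibroblasts moved beside Cdh11 in bladder, tracheal and thymic cells. Of the stromal markers with a name (5 of 12, Col1a1, Col3a1, Col5a2, Col6a3 and Dcn), 4 fell in bladder and 4 in tracheal cells, while Col5a2 rose in bladder, 3 rose in thymic cells and none was called in vaginal cells. In whisker cells, where Cdh11 was not called, Col5a2 fell (log2 change -1.75, adjusted p = 1.19e-09) and the other 4 were not called. Col1a1 was at 175.5 and 126.9 CPM in bladder cells before and 17.76 and 15.5 CPM after, and at 151.3 and 153.9 CPM before and 25.78 and 25.9 CPM after in tracheal cells. In bladder the summed level of the 5 markers went from 306.7 to 369.6 CPM down to 249 to 255.3 CPM. In trachea it went from 567.6 to 610.7 CPM down to 430.3 to 440 CPM. Col5a2 made up most of the sum in trachea, and in bladder it rose from 104.6 and 103.8 CPM to 217.8 and 227.2 CPM. The sum was highest in whisker cells before transplantation (1111 to 1117 CPM). Nearly all of that was Col5a2 (1092 and 1062 CPM), while Col1a1 was at 18.5 and 33.22 CPM there. No marker of the list was at 0 in any group. The part of stromal cells in the falls of Cdh11 and Cdh2 was not tested.

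**Figure D3:**
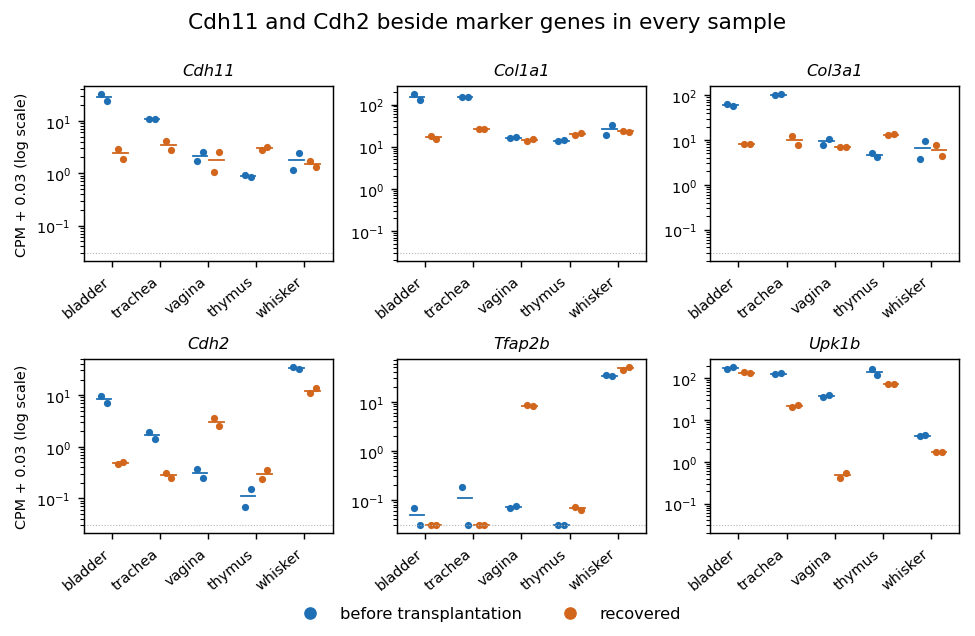
Level of Cdh11 and Cdh2 and of the marker genes Col1a1, Col3a1, Tfap2b and Upk1b in each of the 20 samples, in CPM plus 0.03 on a log axis, by tissue (blue, before transplantation, and orange, recovered, with a line at the mean). Col1a1 and Col3a1 are highest in bladder and tracheal cells before transplantation, as Cdh11 is, and Tfap2b is seen in whisker cells and in recovered vaginal cells.

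Cdh13, T-cadherin, which is held by a lipid anchor and lacks the tail that binds catenins, changed most in thymic cells, from 0.834 and 0.414 CPM to 30.9 and 29.8 CPM. In bladder cells it went from 77.2 and 69.2 CPM to 243 and 258 CPM, and in tracheal cells from 36.5 and 38 CPM to 103 and 93.5 CPM. All 3 tissues showed no overlap. The log2 changes were 5.63 ± 0.36 in thymus (49.5-fold, adjusted p = 3.22e-09), 1.77 ± 0.09 in bladder (adjusted p = 1.87e-10) and 1.40 ± 0.10 in trachea (adjusted p = 2.32e-08). Vaginal cells, from 296 and 252 CPM to 155 and 145 CPM, and whisker cells, from 240 and 214 CPM to 119 and 117 CPM, were lower after recovery by less than 2-fold (log2 changes -0.86 and -0.94). The whisker fall was past 2-fold without the earlier whisker sample 2 (-1.03).

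Cdh16 and Cdh17, cadherins of kidney and intestine with short tails, were low but moved in several tissues. Cdh16 was at 1.87 and 2.21 CPM in vaginal cells before transplantation and 0.168 and 0.0696 CPM after, and at 0.397 and 0.29 CPM before and 3.1 and 2.54 CPM after in thymic cells. The first pair fell and the second rose without overlap (log2 changes -4.03 ± 0.47, adjusted p = 5.02e-06, and 2.95 ± 0.36, adjusted p = 5.58e-06). It also rose in bladder (2.46, adjusted p = 0.000255) and fell in whisker cells (-1.65, adjusted p = 0.00568), the latter not without recovered sample 2 (-1.25). Cdh17 was at 1.49 and 1.73 CPM in vaginal cells before and 0 and 0.0696 CPM after, a ratio of 42.1 with a counting interval of 11.3 to 354 (adjusted p = 2.27e-05). It rose in thymic cells from 0.556 and 0.207 CPM to 2.89 and 1.98 CPM (log2 change 2.70 ± 0.42, adjusted p = 6.96e-05). Its fall in trachea rests on 18 against 3 reads (ratio 5.75, interval 1.68 to 30.5, adjusted p = 0.0175) and was lost on leaving out recovered sample 1 or 2 or the earlier sample 2 (log2 changes -2.04 to -2.41).

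Cdh1, E-cadherin, the main cadherin of epithelium, was the least changed of the 7, with 806 to 2420 CPM over all samples, log2 changes between -0.58 in trachea and 0.33 in vagina and no call. Cdh24, a catenin-binding cadherin, lay between 10.4 and 53 CPM and was called in no tissue. Its change was nearest to the limit in vaginal cells (log2 change -0.94, adjusted p = 2.06e-05).

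The cadherin-related genes and the Cadm genes, immunoglobulin-type adhesion proteins, were called in 1 tissue each. Cdhr1, a photoreceptor cadherin, was at 28.4 and 27.9 CPM in thymic cells before and 10.6 and 10.7 CPM after, a fall without overlap (log2 change -1.40 ± 0.21, adjusted p = 5.34e-05). In bladder cells before transplantation its samples were 9.07 and 18 CPM, on both sides of the recovered ones. Cdhr2, a protocadherin-like link between microvilli, fell in bladder from 1.23 and 0.991 CPM to 0.428 and 0.172 CPM (log2 change -1.95, adjusted p = 0.00202), a call lost without recovered sample 2 (-1.33). Cadm4 was at 21.2 and 21.8 CPM in bladder cells before and 10.9 and 10.2 CPM after, and Cadm1 at 29 and 24.4 CPM before and 11.9 and 13.1 CPM after. Both fell without overlap (log2 changes -1.02 ± 0.12, adjusted p = 2.5e-06, and -1.09 ± 0.12, adjusted p = 6.32e-07). They sit at the 2-fold limit. Cadm4 was at -0.983 without recovered bladder sample 2, and Cadm1 at -0.965 without the earlier bladder sample 1, so each call was lost there. In vaginal cells Cadm4 was higher after recovery, from 9.29 and 12 CPM to 16.5 and 17.1 CPM, under 2-fold (log2 change 0.68, adjusted p = 0.000355).

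The protocadherins, clustered genes whose many variants label single nerve cells, were highest in whisker cells. All 3 were named only from the list of genes that differed from whisker cells in common. A level unlike that of whisker cells was therefore part of the choice, and protocadherins without it could not be named. Pcdhb19 was at 11.1 and 11.9 CPM in whisker cells before transplantation and 8.2 and 8.19 CPM after, and elsewhere between 0.0862 and 3.33 CPM. In bladder cells it rose from 0.261 and 0.0862 CPM to 1.33 and 1.16 CPM (log2 change 2.84 ± 0.51, adjusted p = 0.000173). In tracheal cells it rose from 0.538 and 0.161 CPM to 1.64 and 1.68 CPM (log2 change 2.39 ± 0.43, adjusted p = 0.000336). Both changes were without overlap and left bladder and tracheal cells far under whisker cells. Pcdhga2 was at 5.57 and 3.42 CPM in whisker cells before and 5.02 and 4.79 CPM after, and at most at 1.24 CPM elsewhere. In tracheal cells 25 reads before stood against 1 after, a ratio of 23.9 with a counting interval of 3.92 to 983 (adjusted p = 0.00177). Its thymic fall (log2 change -1.61, adjusted p = 0.0156) was lost when the thymic samples were fitted alone (-1.60). It was also lost without sample 2 of either round (-1.21 and -1.43). Pcdhga3 was at 1.04 and 1.03 CPM in whisker cells before and 2.03 and 2.25 CPM after (log2 change 1.03, adjusted p = 0.00961), a rise lost in the DESeq2 test and without either earlier whisker sample or recovered sample 2 (0.952 to 1.04). In recovered tracheal cells it was listed at 0 in both samples against 7 reads before, at least 2.23-fold lower (adjusted p = 0.00315). Pcdhga2 and Pcdhga3 share their last exons, and Pcdhb19 has close copies beside it. Reads that fit several places were left uncounted (11601894 to 19374286 alignments of such reads in a sample, over the whole genome). So were ambiguous reads, which lie in more than 1 gene (0.537% to 1.30% of the reads with a single alignment, over all genes). The loss for these genes themselves was not measured, so the levels of the 3 protocadherins are uncertain.

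The Eph receptors were called in few tissues, apart from Ephb1. Ephb1, a receptor for B-type ephrins, was at 8.72 and 8.37 CPM in vaginal cells before and 3.23 and 3.86 CPM after, and at 4.64 and 5.05 CPM before and 2.29 and 1.72 CPM after in thymic cells. In tracheal cells it went from 4.11 and 3.62 CPM to 0.986 and 1.5 CPM, and in whisker cells from 1.54 and 1.59 CPM to 0.368 and 0.287 CPM. All 4 tissues were lower after recovery with no overlap. The log2 changes were -1.26 ± 0.16 in vagina (adjusted p = 1.22e-05), -1.30 ± 0.20 in thymus (adjusted p = 7.2e-05), -1.62 ± 0.25 in trachea (adjusted p = 7.67e-05) and -2.20 ± 0.39 in whisker (adjusted p = 0.000579). Bladder cells held 1 read before and 0 after, so a change there was not detectable at this depth. The difference in change among tissues did not pass the test for Ephb1 (adjusted p = 0.247).

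Epha7, a receptor that binds ephrin-A ligands, moved in opposite directions, from 5.54 and 5.85 CPM to 22 and 22.1 CPM in vaginal cells and from 6.24 and 6.98 CPM to 2.71 and 2.93 CPM in bladder cells. Both changes were without overlap (log2 changes 1.95 ± 0.13, adjusted p = 7.5e-09, and -1.21 ± 0.19, adjusted p = 3.88e-05). The recovered vaginal samples came near the whisker samples, at 31.5 to 33.8 CPM. Tracheal samples also lay near them in both rounds, at 26.1 and 29.4 CPM before and 21.4 and 22.5 CPM after. Ephb6, a receptor whose kinase is inactive, was highest in whisker cells, at 125 and 136.6 CPM before and 87 and 88.3 CPM after, and lowest in bladder cells before transplantation, at 9.48 and 7.89 CPM. In bladder it rose to 29.1 and 31.2 CPM (log2 change 1.79 ± 0.12, adjusted p = 1.9e-09). Among recovered cells Ephb6 in thymus, at 49.7 and 55.6 CPM, was lower than in whisker by less than 2-fold (log2 difference -0.73).

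Epha1, an Eph receptor of epidermis and other epithelia, was at 83.6 and 78.8 CPM in bladder cells before and 264 and 270 CPM after, and at 77.6 and 85.2 CPM before and 171 and 164 CPM after in tracheal cells. The rises were without overlap (log2 changes 1.72 ± 0.08, adjusted p = 5.43e-11, and 1.04 ± 0.08, adjusted p = 5.49e-08), and the tracheal call was lost without the earlier sample 1 (0.969). Bladder and tracheal cells did not differ before transplantation beyond their spread (log2 difference 0.00, adjusted p = 0.99). Epha2, the abundant receptor of epidermis for ephrin-A1, at 364 to 999 CPM, Epha4, which binds both ephrin classes, at 41.9 to 108 CPM, and Ephb3, at 50.6 to 143 CPM, were called in no tissue after transplantation. Ephb3 came nearest in bladder (log2 change 0.85, adjusted p = 3e-05) and passed 2-fold without the earlier bladder sample 1 (1.19).

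Among the ephrins, Efna3 rose in 3 tissues. Efna3, an ephrin-A ligand on a lipid anchor, was at 5.12 and 7.72 CPM in bladder cells before and 45 and 38.8 CPM after. It went from 15 and 14.8 CPM to 33.5 and 31.4 CPM in tracheal cells and from 21.1 and 22.9 CPM to 61.2 and 64.5 CPM in vaginal cells. No groups overlapped in these tissues. The log2 changes were 2.74 ± 0.18 (6.70-fold, adjusted p = 2.39e-09), 1.11 ± 0.15 (adjusted p = 1.72e-05) and 1.52 ± 0.13 (adjusted p = 1.54e-07). Thymic cells overlapped between rounds, at 20.2 to 27.9 CPM. Whisker cells, the highest before transplantation at 60.7 and 54.3 CPM, were at 44.4 and 44.2 CPM after, under 2-fold (log2 change -0.38, adjusted p = 0.0328). Its gene neighbours Efna1 and Efna4 were called in no tissue, with log2 changes of -0.09 to 0.80 and -0.08 to 0.67, and both were nearest to the limit in vaginal cells.

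Efnb2, a membrane-spanning ephrin that signals back into its own cell, was highest in bladder cells, at 533 and 506 CPM before and 351 and 347 CPM after. Before transplantation bladder was called higher than each of the 4 other tissues, and tracheal and vaginal cells, at 206 to 244 CPM, did not differ beyond their spread (log2 difference 0.12, adjusted p = 0.17). Changes of Efnb2 were under 2-fold but of both signs, from -0.57 in bladder (adjusted p = 3.08e-06) to 0.81 in thymus (adjusted p = 1.23e-07). Efna2 fell in thymic cells from 1.55 and 1.7 CPM to 0.297 and 0.396 CPM (log2 change -2.16 ± 0.46, adjusted p = 0.00109), which had been the highest of the 5 tissues.

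Ntng2, netrin-G2, a lipid-anchored adhesion protein of synapses, was lowest in whisker cells in both rounds, at 3.33 and 3.42 CPM before and 7.46 and 7.74 CPM after. Ntng2 and both semaphorins were named only from the genes in common against whisker cells, so a level unlike whisker was part of that choice. In tracheal cells it rose from 25.2 and 23.7 CPM to 59.4 and 59 CPM. The whisker and tracheal rises were without overlap (log2 changes 1.17 ± 0.22, adjusted p = 0.000866, and 1.27 ± 0.11, adjusted p = 1.34e-07). Vaginal cells, from 27.3 and 35.7 CPM to 53.8 and 55.9 CPM, were higher by less than 2-fold (log2 change 0.82, adjusted p = 1.19e-05), and passed the limit without the earlier sample 2 (1.01).

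Sema3e, a secreted semaphorin that acts through plexin-D1, was at 69.8 and 82.7 CPM in whisker cells before transplantation and 19.1 and 22.3 CPM after. The fall brought whisker cells close to the other tissues, whose recovered samples were at 13.5 to 18.8 CPM (log2 change -1.87 ± 0.14, adjusted p = 7.57e-08). Among the 4 other tissues Sema3e differed before (span 1.43, adjusted p = 3.7e-07) and did not pass the test after recovery (0.36, adjusted p = 0.18). Sema3a, which repels growing axons through neuropilin-1, was at 0 CPM in both whisker samples before transplantation and at 0.0461 and 0 CPM after. Bladder cells were at 2.95 and 1.38 CPM before and 1.67 and 1.21 CPM after, and tracheal cells at 1.69 and 2.41 CPM before and 1.64 and 1.13 CPM after. Sema3a was called after transplantation in no tissue. The vaginal value (log2 change -1.87, adjusted p = 0.0536) passed in 3 of the alternatives and on leaving out either earlier bladder sample.

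**Figure D4:**
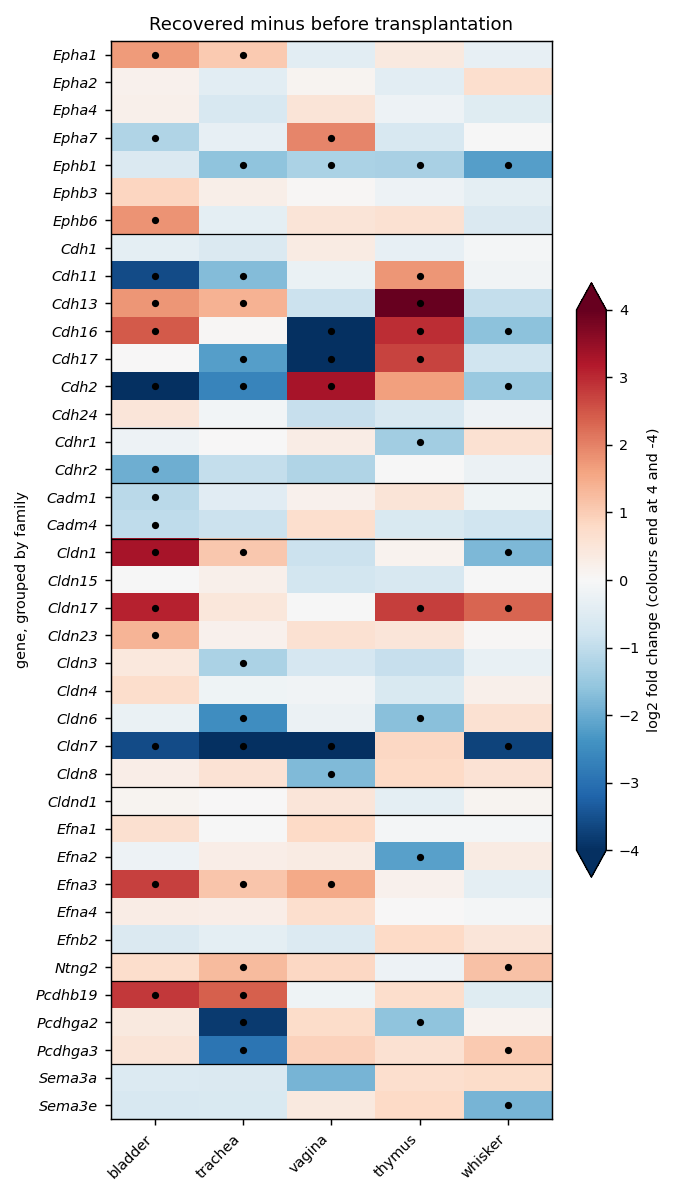
Fitted log2 fold change of recovered minus earlier cells for the 39 members (down the side, grouped by family) in the 5 tissues, red for higher and blue for lower with colours ending at 4 and -4. Dots mark the 58 calls, and Ephb1 and Cldn7 carry 4 dots of the same colour while Cdh11, Cdh16, Cdh17, Cdh2, Cldn1, Epha7 and Pcdhga3 carry dots of both.

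Differences among bladder, tracheal, vaginal and thymic cells were tested without the whisker samples in the contrast. Before transplantation 32 of 39 members differed (40.3% of all genes), and after recovery 28 did (35.6%). With vaginal cells left out 23 differed after recovery, a count given without the share of all genes and from which nothing is read. The median span between the highest and lowest tissue was 2.00 on the log2 scale before and 1.68 after for the members, beside 0.83 and 0.773 for all genes. These tissues took part in the comparisons that named the members, so the larger shares and spans are a description. The 7 not called before were Epha2, Epha4, Ephb3, Cldnd1, Efna4, Pcdhga2 and Pcdhga3, the last 2 of them low throughout. The widest span before transplantation was that of Cdh13 (8.80, adjusted p = 7.3e-14), from thymic to vaginal cells, and it was 3.05 after recovery (adjusted p = 2.6e-12). The spans of Cldn1, Sema3e and Cdh11 were under 2-fold after recovery, at 0.76, 0.36 and 0.96.

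The study set its comparisons against whisker follicle cells, which form hair. The members were listed because they had differed there, so the counts that follow describe the choice and nothing is read from them. Before transplantation 29 members were called against whisker in bladder cells, 9 higher and 20 lower, with 32% of all genes called (18.2% higher, 13.7% lower). In tracheal cells 28 were called, 12 higher and 16 lower (28.3% of all genes, 15.4% and 12.9%). In vaginal cells it was 23, 9 higher and 14 lower (18.6%, 9.90% and 8.66%), and in thymic cells 22, 9 higher and 13 lower (22.9%, 12.5% and 10.4%). Against recovered whisker cells 21 were called in recovered bladder cells, 11 higher and 10 lower (20.1%, 13.5% and 6.59%), and 21 in tracheal cells, 8 higher and 13 lower (19%, 9.83% and 9.22%). Vaginal cells then had 14, 3 higher and 11 lower (11.9%, 5.68% and 6.20%), and thymic cells 18, 8 higher and 10 lower (16.7%, 10.4% and 6.21%). The comparisons of a round share the same 2 whisker samples. Cdh2, Pcdhb19, Pcdhga2 and Pcdhga3 were lower and Ntng2 was higher in all 8. For Cdh2 the log2 difference from whisker before transplantation was -2.01 for bladder, -4.35 for trachea, -6.80 for vagina and -8.50 for thymus. After recovery it was -4.68, -5.51, -2.03 and -5.39 in the same order. The earlier vaginal and thymic values rest on only 14 and 4 Cdh2 reads in those tissues, so their size is uncertain. For Ntng2 the log2 difference lay between 1.46 in recovered thymic cells and 3.20 in vaginal cells before transplantation. For Pcdhb19 it went from -6.02 to -2.70 in bladder and from -5.16 to -2.29 in trachea.

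Some differences from whisker turned with the round. Cldn1 was lower than in whisker cells in bladder (-3.01) and trachea (-1.45) before transplantation and higher in all 4 tissues after recovery (1.32 to 2.08). Against the earlier whisker samples instead, recovered Cldn1 was at -0.46 in vaginal, -0.38 in tracheal, 0.25 in thymic and 0.30 in bladder cells with no call left, since its whisker level had fallen. Cdh13 in bladder was at -1.63 before and 1.09 after, but at 0.14 with no call against the earlier whisker samples (adjusted p = 0.198), its whisker level having come down as well. Cldn7 was higher than in whisker in all 4 tissues before (2.91 to 7.82) and in 3 after, while recovered vaginal cells, with 1 read, stood with the whisker cells at 0. Set against the earlier whisker cells, recovered Cldn7 kept its higher call in bladder (4.23) and thymus (3.73), lost it in trachea (0.21, adjusted p = 0.748) and was lower in vagina (-3.13, adjusted p = 0.00169). Sema3a was at least 33.6-fold higher in bladder and at least 30.9-fold higher in trachea than in the earlier whisker cells, where no read was counted.

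**Figure D5:**
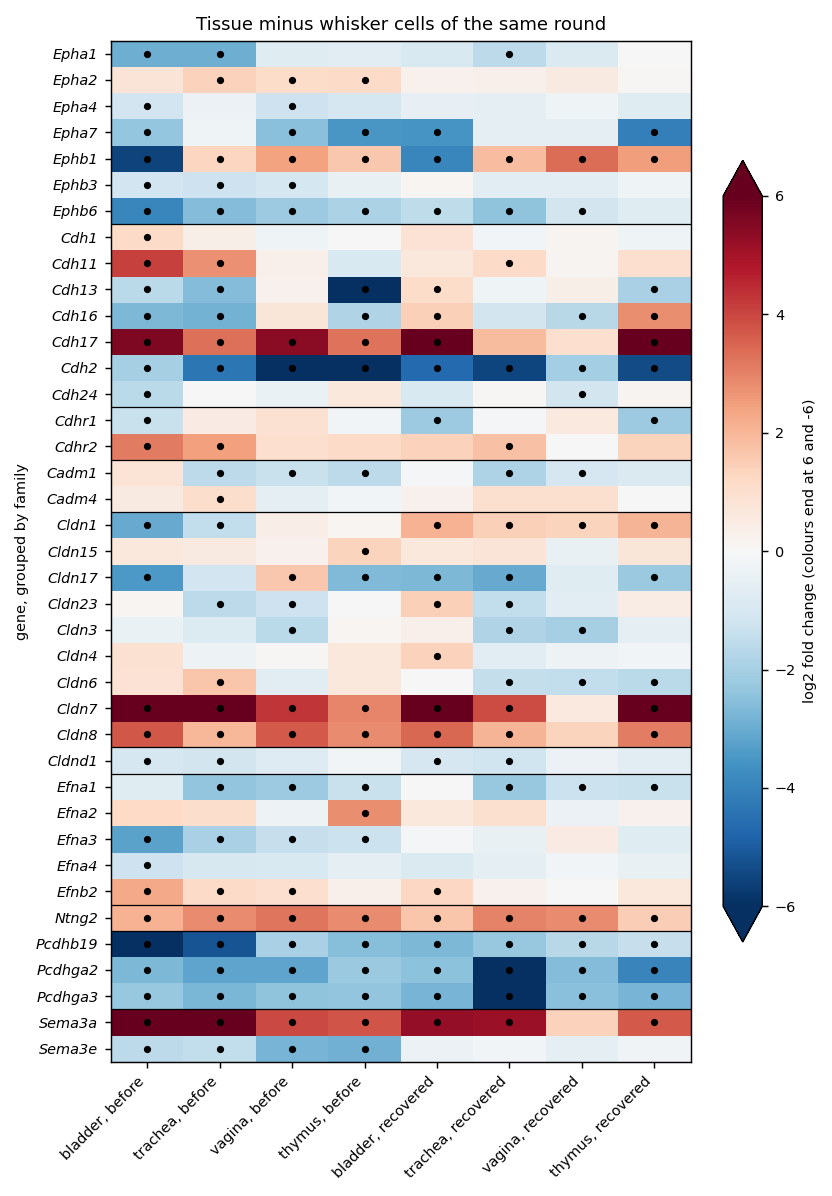
Fitted log2 difference of each tissue from whisker cells of the same round for the 39 members (down the side, grouped by family), before transplantation (left 4 columns) and recovered (right 4), red for higher and blue for lower with colours ending at 6 and -6. Dots mark calls, and Cdh2, Pcdhb19, Pcdhga2, Pcdhga3 and Ntng2 carry dots in all 8 columns.

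Partners of these proteins were taken from 2 lists of genes that are not members. Of 33 junction partners 7 had a name (Ctnnb1, Ctnnd2, Cgnl1, F11r, Jam2, Magi3 and Crb3). After transplantation 1 rose and 1 fell in bladder, 2 fell in trachea, 2 fell in vagina, 3 rose and 1 fell in thymus, and 1 fell in whisker. Ctnnd2, a catenin that binds cadherin tails, was at 3.51 and 2.29 CPM in bladder cells before and 0.0476 and 0 CPM after, and at 4.92 and 5.67 CPM before and 0.939 and 0.875 CPM after in trachea (log2 change -2.52, adjusted p = 1.1e-05). It was the call lower in bladder and one of those in trachea, as Cdh2 and Cdh11 were, and it rose in thymus (log2 change 1.38). Crb3, a polarity protein at the top of epithelial cells, was at 26.5 and 28.3 CPM before and 9.72 and 8.43 CPM after in trachea and at 11.5 and 8.12 CPM before and 31.9 and 32.0 CPM after in thymus, without overlap. Ctnnb1, beta-catenin, was called in no tissue, with log2 changes between -0.68 and 0.33.

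Of 36 signalling partners of Eph receptors, ephrins and semaphorins 8 had a name (Pik3r3, Adam10, Adam17, Dpysl2, Dpysl3, Crmp1, Nrcam and Chl1). In bladder 3 fell, in trachea 2 fell, in vagina 1 rose and 2 fell, in thymus 1 rose and in whisker none was called. Crmp1 and Dpysl3, relays of semaphorin signals to the cytoskeleton, and Nrcam, a nerve cell adhesion protein, were those that fell in bladder (log2 changes -4.58, -1.41 and -4.85). Chl1, an adhesion protein that can act with semaphorin receptors, rose in vaginal cells from 0.382 and 0.399 CPM to 6.91 and 7.27 CPM (log2 change 4.12, adjusted p = 1.1e-06), where Cdh2 rose too. It was at 10.92 to 16.33 CPM in whisker cells. Adam10 and Adam17, sheddases that cut ephrins and cadherins from the cell surface, were called in no tissue. Endothelial, muscle and pigment or Schwann cell markers had no names. Cd68, the single named blood marker (of 6), rose in bladder (13.41 to 14.67 CPM before, 52.9 to 55.09 CPM after) and trachea and fell in vagina, and its part in the member changes was not tested.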

How the data were processed

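RNA was sequenced from cultured, EGFP-sorted rat cells of 5 tissues before and after transplantation, 2 samples in each of 10 groups. Per the labels, the authors trimmed reads with cutadapt 1.8, aligned them with STAR 2.5.2b to Rnor_6.0 and counted them per gene with HTSeq 0.6.1. The deposited values are raw counts, with no normalization. Reads with several alignments were left out. The library kit keeps strand, but the strand setting of the counting is not given in the sources used here, so reads of antisense genes may be included. Of the reads with a single alignment, 13.2% to 19.3% fell on no gene and 0.537% to 1.30% were ambiguous, and both were kept out of library sizes.

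Symbols came from the gene lists of the study. The fold changes and p values beside them were not used. The members and lists were chosen with earlier results of these data known. Counts were scaled by TMM (edgeR 4.0.16), genes with 1 CPM in at least 1 sample were kept (13302), and limma 3.58.1 (voom, R 4.3.3) was fitted to all 20 samples with 10 group means, which left 10 residual degrees of freedom. Benjamini-Hochberg adjustment ran over all genes of a comparison. Calls needed an adjusted p under 0.05 and a 2-fold change. A moderated F test was used among tissues and for the difference in change. The scripts were tested on simulated counts. Genes described with every sample's value were the largest rises and falls in each tissue with at least 5 CPM, those highest in 1 tissue, those called against whisker in all 8 comparisons, those called alike in 4 of 5 tissues, and 1 gene for each family left. Other members were added after their values were seen.

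Alternatives were edgeR's quasi-likelihood test, DESeq2 1.42.0, its size factors, the filter removed or raised to 1 CPM and 10 counts in 2 samples, a log2 fold change of 2, the replicate block, only the samples compared, recovered cells against earlier whisker cells, and each of the 20 samples left out. An exact permutation test of 2 against 2 samples cannot go below 0.33 and was not used.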

Additional observations from a re-analysis of the deposited data

Results flagged for a closer look

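For 30 of the 39 members the change after transplantation differed among the 5 tissues by limma's F test (45.4% of all genes), and the distance between the highest and the lowest fitted log2 change is given here for each. It was widest for Cldn7, at 8.32, between thymic cells (0.82) and tracheal cells (-7.50, adjusted p = 9.9e-07), followed by Cdh17 at 7.90 and Cdh2 at 7.44. Values of Cldn7, Cdh17, Pcdhga2, Pcdhga3 and Cldn17 rest in part on groups with 0 to 3 reads, where a fitted change depends on the small count the model adds. With groups of 2 samples a single sample far from its group cannot be tested for.

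Among the other cadherins the distance was 6.98 for Cdh16, 6.57 for Cdh13, 5.36 for Cdh11, 1.41 for Cdh24 and 2.01 for the cadherin-related Cdhr1. For the claudins it was 5.09 for Cldn1, between bladder and whisker cells, 3.11 for Cldn17, 3.09 for Cldn6, 1.71 for Cldn3, 1.30 for Cldn23 and 1.30 for Cldn4. The protocadherins gave 4.56 for Pcdhga2, 3.95 for Pcdhga3 and 3.32 for Pcdhb19, with tracheal cells lowest for the first pair. Cadm4 stood at 1.70 and Cadm1 at 1.61, lowest in bladder cells for both.

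The Eph receptors gave 3.17 for Epha7, between vaginal and bladder cells, 2.37 for Ephb6, 2.15 for Epha1, 1.25 for Ephb3, 1.15 for Epha4 and 1.07 for Epha2. The last 3 were called in no single tissue. For the ephrins the distance was 3.12 for Efna3, 2.5 for Efna2 and 1.38 for Efnb2, the last between thymic (0.81) and bladder cells (-0.57). It was 2.68 for Sema3e, between thymic and whisker cells, and 1.46 for Ntng2. The difference did not pass for Ephb1, Cdh1, Cdhr2, Cldn15, Cldn8, Cldnd1, Efna1, Efna4 and Sema3a, by its p value or by a distance under 2-fold.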

How the results depend on the processing

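Counts of members called changed by more than 1.5 times only where a log2 fold change of 2 was required. After transplantation they were then 8 in bladder, 7 in trachea, 4 in vagina, 5 in thymus and 3 in whisker. Against whisker they were 15 in trachea, 13 in vagina and 14 in thymus before transplantation, and 13 in bladder, 11 in trachea and 6 in vagina among recovered cells. Among the 4 tissues they were 20 before and 17 recovered, and for the difference in change 19. The shares of all genes at that limit are not given here, so nothing is read from these counts. Against earlier whisker cells, 5 recovered values turned, namely Cdh16 in bladder (-0.24), Ephb1 in trachea (-0.331), Cldn1 in trachea (-0.377) and vagina (-0.46) and Cldn17 in thymus (0.097). Of the 58 calls after transplantation, 23 held under every alternative and left-out sample, 44 under all but the log2 fold change of 2, and 0 turned. Of the values not called, 6 passed under some setting.

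Leaving out 1 sample gave 13 to 16 members after transplantation in bladder, 14 to 15 in trachea, 7 to 9 in vagina, 7 to 10 in thymus (lowest without recovered sample 2) and 7 to 9 in whisker. Over all genes the calls were then 2649 to 2815 in bladder, 1372 to 1693 in trachea and 1298 to 1616 in vagina. They were 1786 to 2288 in thymus and 665 to 841 in whisker. The same numbers mark samples across groups but did not pair them (r between -0.123 and 0.24 over 45 pairs of groups, 10 over 0.1). With the replicate block the counts after transplantation were 16, 15, 9, 10 and 9 in bladder, trachea, vagina, thymus and whisker, 22 for recovered bladder against whisker and 29 among recovered tissues. A crossed block for bladder against whisker before transplantation, chosen after seeing the data, left 29 members, as the uncrossed one did. Shares of all genes are not given for these blocks. Leaving out vaginal cells was also chosen after seeing the data.

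Depth limits genes under about 0.143 CPM, the highest level that 3 counts have in a sample. Only 2 samples per group, names for a fraction of each family, and tissues that differ in donor age and culture limit the rest.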

Other observations

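Jam2 and Cgnl1, junction partners that are not members, were not described above and were chosen after their values were seen. Jam2, a junctional adhesion molecule of the immunoglobulin type, was at 15.14 and 12.67 CPM in vaginal cells before transplantation and 1.801 and 1.671 CPM after, and at 19.61 and 20.17 CPM before and 7.05 and 6.21 CPM after in thymic cells. Both fell without overlap (limma log2 changes -2.99, adjusted p = 9.4e-07, and -1.59, adjusted p = 3.8e-06). In bladder cells Jam2 rose from 4.82 and 1.90 CPM to 10.43 and 10.72 CPM (log2 change 1.76, adjusted p = 2.7e-05). Whisker cells stayed between 0.696 and 0.875 CPM in all 4 samples. Cgnl1, paracingulin, which links junctions to the cytoskeleton, fell in vaginal cells (log2 change -1.32, adjusted p = 1e-08) and rose in thymic cells (1.06, adjusted p = 6e-08).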
